A study of Mus musculus with 6 samples.

Results

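The nuclear receptors are a family of transcription factors, many of which are switched by small lipophilic ligands such as thyroid hormone, retinoic acid, oxysterols and steroids. Without ligand, several of them, with the thyroid hormone and retinoic acid receptors as the best known cases, hold a corepressor complex on their target genes, which includes NCOR1, HDAC3, GPS2, TBL1X and TBL1XR1. Ligand binding exchanges this complex for coactivators. Members without a known natural ligand, such as the COUP-TF factors encoded by *Nr2f1* and *Nr2f2*, pattern the developing cortex and also recruit corepressors.

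A list of 38 nuclear receptor genes was followed by gene name through RNA-seq values of neural stem cells (NSCs), and all 38 were among the 53379 genes of the table. NSCs had been derived from the cortex of *Tbl1xr1* flox/flox mouse embryos at E14.5 and grown as neurospheres in a medium with insulin, progesterone, basic FGF and EGF. Both groups carry the floxed alleles and both received a lentivirus. The control group of 3 libraries (GFP 1, GFP 1_1 and GFP 2) received GFP only, and the other 3 libraries (Cre 2, Cre 2_2 and Cre 3) received Cre-GFP, whose recombinase removes the floxed exon of *Tbl1xr1*. GFP+ cells were sorted. Nothing in the labels says whether libraries of one group came from separate cultures or embryos, so p-values measure only the spread between these samples, which may be technical.

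The recovered depth ran from 7510615 to 14828100 reads per library, and the Cre-labelled libraries were all deeper than the control libraries. The mRNA of the targeted gene, *Tbl1xr1*, had a normalized count (reads divided by a size factor per library) of 2522, 2189.8 and 2721 in GFP 1, GFP 1_1 and GFP 2, and of 3774, 3463 and 2905 in Cre 2, Cre 2_2 and Cre 3. It was therefore not lower in the Cre-labelled libraries, with a log2 fold change of 0.45 (limma adjusted p = 0.06), and without Cre 3 this was 0.55 with a limma adjusted p of 0.0234. The authors report checking sorted cells for genotype and for absence of *Tbl1xr1* mRNA by RT-qPCR and of its protein by Western blot. Counts over the whole gene do not measure the floxed exon on its own, and every direction below is given as measured in the Cre-labelled libraries. Of 10 NSC markers, *Sox9* rose and *Nes* fell, and the summed normalized count of the list ran from 37479 to 40872 in control and from 39506 to 44116 in the Cre-labelled libraries. Markers of other cells also moved with the group. Of 10 astrocyte markers tested 6, *Sox9* again among them, rose and none fell (summed 14831 to 16121 against 23629 to 27604), and of 7 oligodendrocyte lineage markers tested 3 rose and none fell (12899 to 14824 against 17819 to 20124). None of 6 neuron markers passed the limma test, at the adjusted or the unadjusted threshold or with edgeR or DESeq2 (summed 9349 to 9574 against 10176 to 11447). Of the other lists, 1 of 9 microglia markers (summed 164 to 206 against 168 to 274, with *Tmem119*, *C1qa* and *C1qb* at 0 reads), 1 of 6 endothelial markers (26.7 to 40.4 against 15.2 to 19.4, with *Cdh5* and *Cldn5* at 0) and 0 of 8 fibroblast and mural markers (3.67 to 12 against 8.31 to 23.3, with *Col1a2* and *Pdgfrb* at 0) were high enough to test. The part of these markers in the receptor values was not tested, and in bulk libraries fewer cells of a type and less RNA per cell cannot be told apart.

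Of the 38 receptors, 27 had a mean normalized count of at least 10 over the 6 libraries and were tested, and 11 lay below. At an adjusted p under 0.05 (limma, Benjamini-Hochberg over 14840 genes), 9.96% of all genes tested differed between the groups, 4.74% higher and 5.22% lower in the Cre-labelled libraries. Among the 27 receptors 5 passed, which is 18.5%. *Nr2f1*, *Rora* and *Thrb* rose, and *Nr2f2* and *Nr5a2* fell. At an unadjusted limma p under 0.05 there were 12 receptors, 6 in each direction, against 25.5% of all genes. The control values and those of the Cre-labelled libraries did not overlap for 13 receptors, 7 higher and 6 lower, or 48.1%, against 30.3% of all genes (14.7% higher and 15.5% lower). The receptors had no common direction. Of the 27, 13 had a positive and 14 a negative log2 fold change, with a median of -0.0137 against -0.0010 over all genes. The median size of the change without its sign was 0.3814 on the log2 scale against 0.2631 over all genes. These shares and medians are descriptions of the list.

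**Figure D1:**
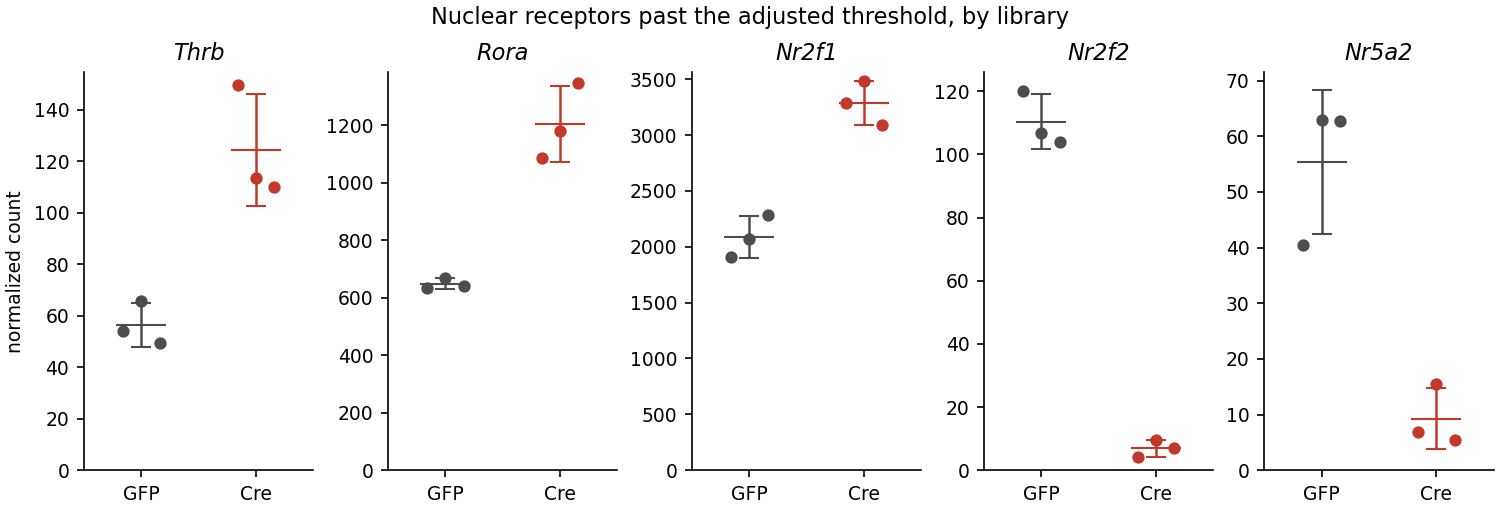
Normalized count of each library (points) for the 5 receptors past the adjusted threshold, in the control (GFP) and Cre-labelled libraries, with the mean (line) and SD (bars) of 3 libraries on a linear axis from 0. *Thrb*, *Rora* and *Nr2f1* lie higher and *Nr2f2* and *Nr5a2* lower in the Cre-labelled libraries, with no overlap of the groups in any panel.

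The regulatory sequences of 3 receptor genes are shown first, because retinoic acid and thyroid hormone receptors bind DNA through short repeats of a hexamer and also act on receptor genes. Each sequence is a RefSeq promoter of GRCm38.p6, 250 bases before to 50 bases after a transcript start, printed 5′ to 3′ on the gene's strand, with the match to a searched motif in capitals. *Rarb* holds the hexamers GGTTCA and AGTTCA with 5 bases between them, long known as the retinoic acid response element of this gene, starting 53 bases before the start. Among the 5 receptors past the threshold, the promoters of *Thrb* and *Nr5a2* hold the single hexamer AGGTCA, which starts 184 and 64 bases before the start, respectively.
Rarb, chr14:16575427-16575726, minus strand: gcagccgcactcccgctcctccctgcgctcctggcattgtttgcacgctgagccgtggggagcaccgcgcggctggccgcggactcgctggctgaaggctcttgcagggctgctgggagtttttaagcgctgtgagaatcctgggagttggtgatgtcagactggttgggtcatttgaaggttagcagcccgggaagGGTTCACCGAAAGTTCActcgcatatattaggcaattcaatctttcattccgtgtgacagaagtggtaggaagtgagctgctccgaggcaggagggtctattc
Thrb, chr14:17660710-17661009, plus strand: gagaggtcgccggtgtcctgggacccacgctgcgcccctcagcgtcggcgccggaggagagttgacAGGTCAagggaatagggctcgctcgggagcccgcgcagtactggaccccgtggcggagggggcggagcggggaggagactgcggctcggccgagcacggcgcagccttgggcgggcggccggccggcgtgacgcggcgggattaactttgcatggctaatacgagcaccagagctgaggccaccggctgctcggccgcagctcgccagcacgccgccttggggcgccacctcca
Nr5a2, chr1:136960399-136960698, minus strand: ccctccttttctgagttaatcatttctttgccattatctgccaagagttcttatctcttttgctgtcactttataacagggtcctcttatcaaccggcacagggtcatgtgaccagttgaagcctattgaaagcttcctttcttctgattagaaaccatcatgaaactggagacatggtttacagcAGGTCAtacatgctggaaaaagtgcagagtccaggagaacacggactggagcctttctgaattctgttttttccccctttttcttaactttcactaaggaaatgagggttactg

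The searches covered both strands of 32851 RefSeq promoters, of which 57 belong to 36 of the 38 receptors. AGGTCA was found in 16.3% of all promoters and in 10 of the 57 receptor promoters (17.5%, of 9 genes), so this hexamer was about as frequent in both. The pair GGTTCA and AGTTCA at the spacing of 5 bases was found in 2 promoters of all, 1 of them that of *Rarb*. A repeat of AGGTCA with 4 bases between, the spacing known for thyroid hormone receptors, was found in 5 promoters and one with 1 base between in 13, none of a listed receptor. Both of these repeats hold the single hexamer. A match is a match of letters only.

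Among the orphan receptors of the COUP-TF group, *Nr2f2* (COUP-TFII, ENSMUSG00000030551) had the largest fold change of the 27 receptors. The gene spans 70351946 to 70366746 on chromosome 7 of GRCm38. Normalized counts were 120.2, 107 and 104 in GFP 1, GFP 1_1 and GFP 2, and 4.16, 9.47 and 7.16 in Cre 2, Cre 2_2 and Cre 3. All 3 Cre-labelled libraries were far below every control library. The recovered reads were 131, 73 and 78 in control and 6, 11 and 8 in the Cre-labelled libraries, although the latter were sequenced more deeply. The mean went from 110.3 ± 8.66 (SD, n = 3) to 6.93 ± 2.66 (SD, n = 3), so that the control mean was 15.9 times the other. *Nr2f2* fell by 3.87 on the log2 scale (standard error 0.34, 95% interval -4.61 to -3.13, limma adjusted p = 6.88e-05).

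Its paralog *Nr2f1* (COUP-TFI, ENSMUSG00000069171; chromosome 13, 78188971 to 78198873), a regulator of cortical area patterning, moved the other way. Its normalized count was 1909.7, 2069.9 and 2283 in the control libraries and 3286, 3483 and 3091 in the Cre-labelled libraries, with no overlap. The mean rose from 2088 ± 187 to 3287 ± 196 (SD, n = 3 each), 1.57-fold (log2 fold change 0.66, standard error 0.12, limma adjusted p = 0.00569). Exons of an antisense neighbour, *A830082K12Rik*, cover 103 bases (2.17%) of the exonic length of *Nr2f1* in GENCODE M1, and this neighbour rose as well, from a mean of 399 to 797 (log2 fold change 1.00, limma adjusted p = 0.00261). The library kit does not mark strand, so reads in those shared bases cannot be told apart. On a scale of normalized count per kilobase of exon, *Nr2f2* made up 4.26% to 5.79% of the sum of the pair in control and 0.123% to 0.265% in the Cre-labelled libraries. The third gene of the group, *Nr2f6* (EAR2), had 453, 419.8 and 427 in control and 321, 443 and 378 in the Cre-labelled libraries. These groups overlapped (log2 fold change -0.20, 95% interval -0.52 to 0.13, limma adjusted p = 0.446), and 54.4% of its exonic length is shared with the opposite-strand gene *Ocel1*.

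*Nr5a2* (LRH-1, ENSMUSG00000026398; chromosome 1, 136842562 to 136960448), an orphan receptor known from bile acid metabolism and pluripotency, was the other receptor that fell. Its normalized count was 40.4, 62.9 and 62.7 in the control libraries and 6.93, 15.5 and 5.37 in the Cre-labelled libraries. The highest value labelled Cre was below the lowest control value. The mean went from 55.3 ± 12.9 to 9.26 ± 5.45 (SD, n = 3 each), a log2 fold change of -2.55 (standard error 0.42, 95% interval -3.47 to -1.63, limma adjusted p = 0.00384). The other germ cell and stem cell orphan, *Nr6a1* (GCNF), had 45.0, 52.7 and 62.7 in control and 38.1, 19.8 and 26.0 in the Cre-labelled libraries. Its groups did not overlap, but the log2 fold change of -0.95 missed the threshold (95% interval -1.63 to -0.27, limma adjusted p = 0.0783). Without Cre 2 it was -1.19, with a limma adjusted p of 0.0237.

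The thyroid hormone receptors differed in both level and change. *Thrb* (ENSMUSG00000021779; chromosome 14, 17659225 to 18040097) had a normalized count of 54.1, 65.8 and 49.3 in the control libraries and of 149.6, 114 and 110.1 in the Cre-labelled libraries. The lowest value labelled Cre was well above the highest control value. The mean rose from 56.4 ± 8.48 to 124 ± 21.8 (SD, n = 3 each), 2.21-fold (log2 fold change 1.12, standard error 0.22, limma adjusted p = 0.00925). *Thra*, by far the more abundant of the pair, had 2977, 2756 and 2982 in control and 3253, 3148 and 3786 in the Cre-labelled libraries. Its groups did not overlap either, but the log2 fold change was 0.22 (95% interval -0.04 to 0.48, limma adjusted p = 0.269). Per kilobase of exon, *Thrb* made up 1.14% to 1.64% of the pair in control and 1.99% to 3.10% in the Cre-labelled libraries.

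The ROR receptors, which activate many of the genes that the REV-ERB receptors repress, shifted within their pair. *Rora* (RORα, ENSMUSG00000032238; chromosome 9, 68653404 to 69388246) had a normalized count of 635, 670.0 and 641 in the control libraries and of 1087, 1180.3 and 1349 in the Cre-labelled libraries. The control values lay close together, and every value labelled Cre was higher. The mean rose from 649 ± 18.6 to 1206 ± 133 (SD, n = 3 each), 1.86-fold (log2 fold change 0.89, standard error 0.12, limma adjusted p = 0.00147). *Rorb*, known for its role in layer IV neurons of the cortex, had 1356, 1606 and 1451 in control and 1026, 1148 and 1261 in the Cre-labelled libraries. Its groups did not overlap, and its log2 fold change was -0.36 (95% interval -0.64 to -0.09, limma adjusted p = 0.0936). The share of *Rorb* in the pair, per kilobase of exon, was 71.6% to 73.9% in control and 52.5% to 53.5% in the Cre-labelled libraries. The sum of the pair overlapped between the groups, at 171 to 196 and 176 to 217 normalized counts per kilobase.

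**Figure D2:**
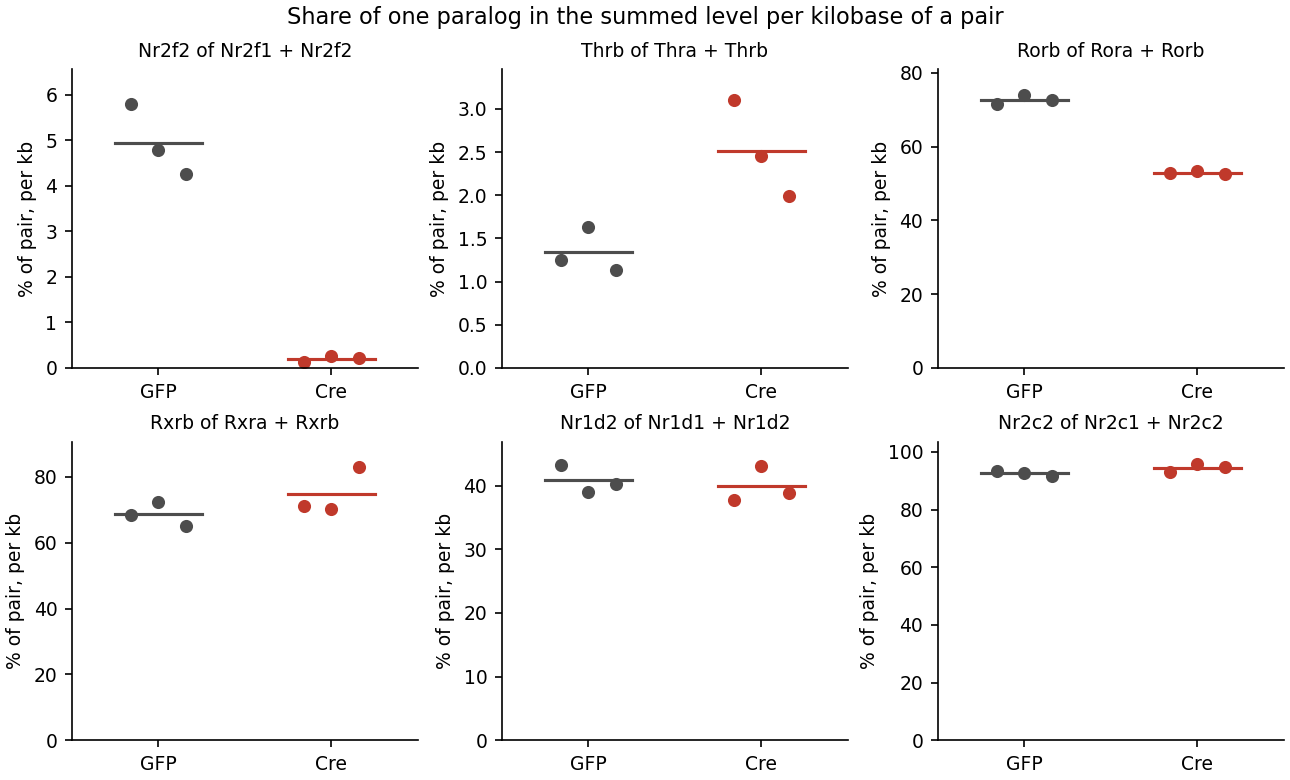
Share (percent) of one receptor in the summed normalized count per kilobase of exon of a pair, for 6 pairs, with 1 point per library and a line at the group mean, on axes from 0. The shares of *Nr2f2*, *Thrb* and *Rorb* do not overlap between the groups, whereas those of *Nr1d2*, *Nr2c2* and *Rxrb* do.

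The REV-ERB receptors *Nr1d1* and *Nr1d2* repress transcription in the circadian clock and need NCOR1 and HDAC3 for it. *Nr1d1* had a normalized count of 262, 255 and 299 in control and of 436, 364 and 345 in the Cre-labelled libraries. *Nr1d2* had 318, 260.4 and 323 in control and 422, 441 and 352 in the Cre-labelled libraries. Neither pair of groups overlapped, and neither gene passed the threshold. The log2 fold change of *Nr1d1* was 0.49 (95% interval 0.16 to 0.81, limma adjusted p = 0.0621), and it was 0.56 with a limma adjusted p of 0.0496 without Cre 3. For *Nr1d2* it was 0.43 (95% interval 0.10 to 0.76, limma adjusted p = 0.101). Exons of *Nr1d1* and *Thra* share 263 bases on opposite strands, 8.42% of the exonic length of *Nr1d1*.

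The testicular receptors *Nr2c1* and *Nr2c2* (TR2 and TR4), orphan repressors of retinoid signalling, were unequal in level. *Nr2c2* had a normalized count of 1476, 1733 and 1540.4 in control and of 1765, 2386 and 2801 in the Cre-labelled libraries. Its lowest value labelled Cre was just above its highest control value. Its log2 fold change was 0.53 (95% interval 0.17 to 0.88, limma adjusted p = 0.0626), and 0.71 with a limma adjusted p of 0.00238 without Cre 2. DESeq2 on the recovered reads put it past the threshold (0.55, DESeq2 adjusted p = 0.0246). Of its exonic length, 38.6% is shared with *Mrps25* on the opposite strand, a gene of the mitochondrial ribosome. *Nr2c1* lay between 52.3 and 69.3 in control and between 53.4 and 77.0 in the Cre-labelled libraries (log2 fold change 0.05, 95% interval -0.48 to 0.58, limma adjusted p = 0.926). *Nr2e1* (TLX), which keeps neural stem cells in the undifferentiated state, lay between 119.9 and 186 in control and between 94.0 and 169.6 in the Cre-labelled libraries (log2 fold change -0.13, 95% interval -0.67 to 0.41, limma adjusted p = 0.789).

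None of the 3 retinoic acid receptors passed the adjusted threshold with limma, edgeR or DESeq2, and 1, *Rarg*, had an unadjusted limma p under 0.05. *Rara* had 92.7 to 121 normalized counts in control and 91.3 to 128 in the Cre-labelled libraries (log2 fold change -0.04, 95% interval -0.50 to 0.41, limma adjusted p = 0.919). *Rarb*, itself a known retinoic acid target through the element shown above, had 16 to 23.9 and 19.4 to 34.9 (0.38, 95% interval -0.39 to 1.16, limma adjusted p = 0.547). *Rarg* had 63.3, 87.8 and 56.0 in control and 33.9, 28.4 and 67.2 in the Cre-labelled libraries. Cre 3 alone lay within the control range, and the log2 fold change was -0.74 (limma adjusted p = 0.193), or -1.10 with a limma adjusted p of 0.0377 without it. *Rxra*, a shared dimer partner of the thyroid hormone, retinoic acid, PPAR and LXR receptors, had 271, 274 and 313 in control and 237, 249.7 and 139 in the Cre-labelled libraries. Its groups did not overlap, with Cre 3 the lowest (log2 fold change -0.50, 95% interval -0.97 to -0.02, limma adjusted p = 0.174). *Rxrb*, the more abundant RXR per kilobase, had 395 to 486 in control and 397 to 463 in the Cre-labelled libraries (-0.02, 95% interval -0.33 to 0.29, limma adjusted p = 0.95).

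The lipid sensors were low to moderate in level. *Nr1h2* (LXRβ), a receptor for oxysterols, had a normalized count of 102, 117 and 103 in control and of 97.0, 81.8 and 75.2 in the Cre-labelled libraries. These groups did not overlap, and the log2 fold change was -0.34 (95% interval -0.77 to 0.09, limma adjusted p = 0.307). The fatty acid receptor *Ppara* had 56.0 to 69.3 in control and 68.0 to 76.2 in the Cre-labelled libraries (0.17, 95% interval -0.30 to 0.64, limma adjusted p = 0.678). *Ppard* had 104 to 151 and 100.4 to 133 (-0.16, 95% interval -0.62 to 0.30, limma adjusted p = 0.696). *Esrra*, which with its coactivators drives mitochondrial genes, had 142 to 233 in control and 150.4 to 267 in the Cre-labelled libraries (-0.01, 95% interval -0.56 to 0.53, limma adjusted p = 0.981). *Nr3c1*, the glucocorticoid receptor and the only steroid receptor high enough to test, had 600.1 to 698 and 667 to 740.5 (0.09, 95% interval -0.18 to 0.36, limma adjusted p = 0.695).

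The NR4A receptors are immediate early genes that follow acute stimulation, and their libraries disagreed within a group. *Nr4a1* had 6.42, 7.31 and 9.34 normalized counts in control and 26.3, 30.1 and 6.27 in the Cre-labelled libraries. Cre 2 and Cre 2_2 were above every control library and Cre 3 below all of them, so the log2 fold change was 1.09 (95% interval -0.17 to 2.35, limma adjusted p = 0.264), and 1.76 without Cre 3 (limma adjusted p = 0.0327). *Nr4a3* had 11.9, 13.2 and 4.00 in control and 11.1, 55.1 and 4.48 in the Cre-labelled libraries, with the highest value in Cre 2_2. Its log2 fold change was 0.67 (95% interval -1.02 to 2.36, limma adjusted p = 0.639) and turned to -0.26 without that library. *Nr4a2* (NURR1) had 83.4 to 127 in control and 74.3 to 137 in the Cre-labelled libraries (-0.21, 95% interval -0.79 to 0.38, limma adjusted p = 0.684). Of the 22 receptors that did not pass, 17 had a 95% interval inside -1 and 1 on the log2 scale, and the NR4A genes *Nr4a1* and *Nr4a3* were among those that did not.

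**Figure D3:**
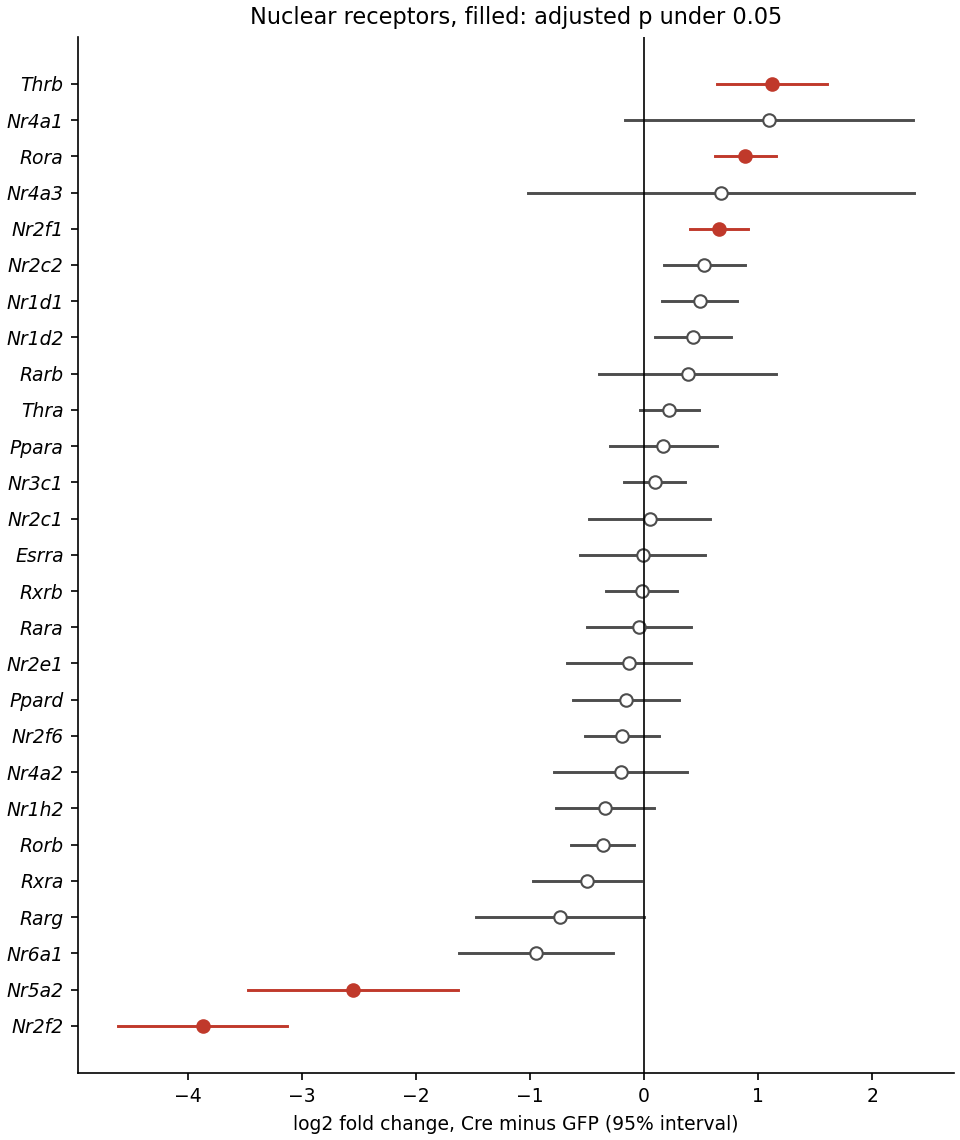
Log2 fold change of the 27 tested receptors, Cre-labelled libraries minus control on the scale of log2(normalized count + 1), with 95% intervals, ordered by size. The 5 filled points are those past the adjusted threshold, and the widest intervals are those of *Nr4a3* and *Nr4a1*.

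**Figure D4:**
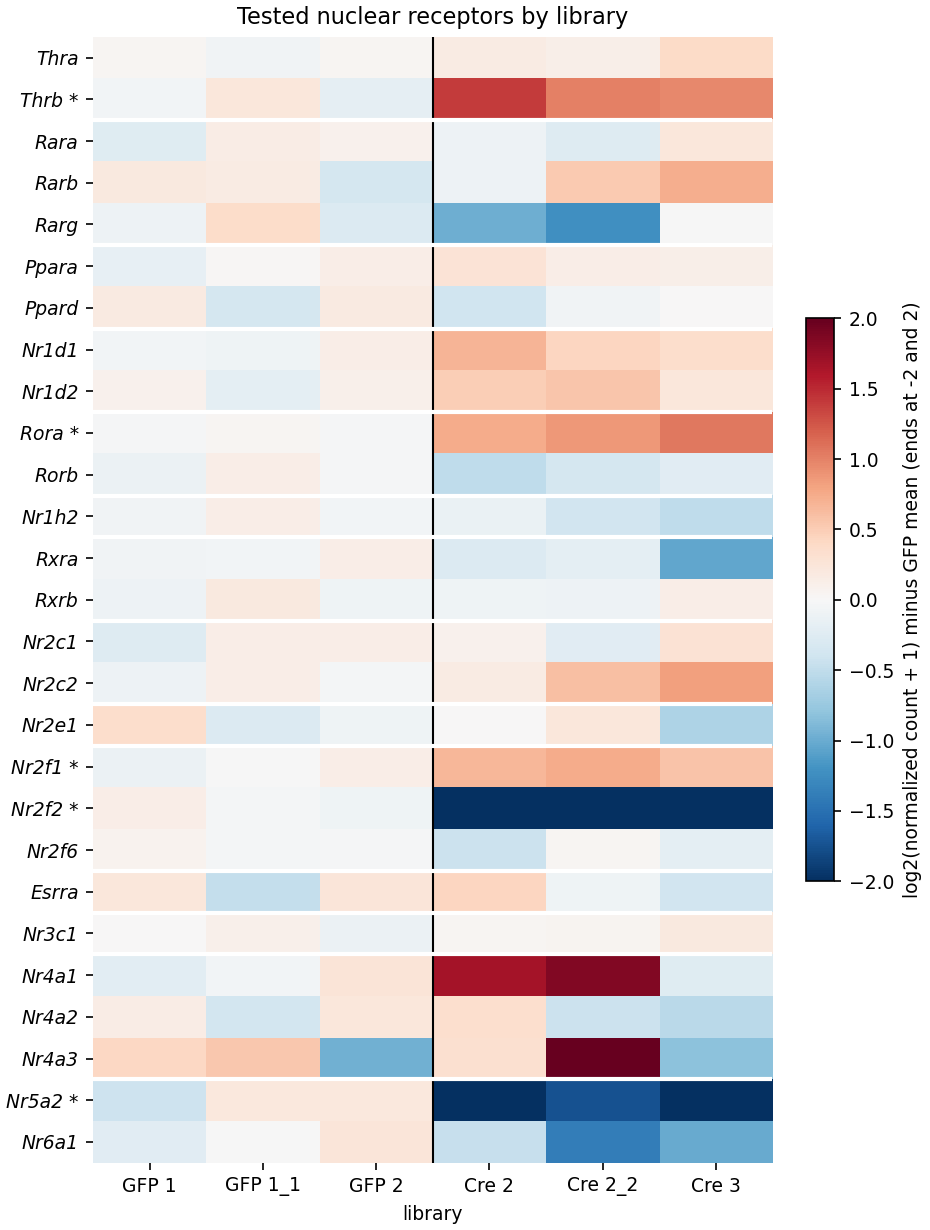
Level of each tested receptor in each library as log2(normalized count + 1) minus the mean of the control libraries, with colours ending at -2 and 2, rows grouped by subfamily and an asterisk at the 5 receptors past the threshold. *Nr2f2* is at the lower end of the scale in every Cre-labelled library, and *Nr4a1*, *Rarg* and *Rxra* show Cre 3 apart from Cre 2 and Cre 2_2.

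The 11 receptors below the minimum give a picture of what these cells hold little of. Nearest to the limit was *Esrrg*, with a mean of 9.33 over all libraries, while the lowest tested receptor was *Nr4a1* at 14.3. *Esrrg* had 3, 5 and 5 reads in the control libraries and 11, 17 and 19 in the Cre-labelled libraries. *Esrrb* (mean 3.90), *Nr1h3* or LXRα (3.81), *Pparg* (3.41) and the mineralocorticoid receptor *Nr3c2* (3.11) followed, and *Nr3c2* had 0 to 2 reads in every library but Cre 3, which had 14. The estrogen receptor *Esr1* had 0 to 2 reads in every library. The progesterone receptor *Pgr*, whose ligand is in the medium, had 1, 1 and 2 reads in control and 0 in each Cre-labelled library. Both are at or under the floor of 3 reads, so no fold is given. *Rxrg* had 2 reads, both in Cre 2, the vitamin D receptor *Vdr* 1 read, in GFP 1, and *Esr2* and *Hnf4a* none. A count of 0 allows up to 3 reads per library, and this floor covers counting error only.

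Between genes, levels were compared per kilobase of exon. The exonic lengths come from GENCODE M1, which holds 61.2% of the gene identifiers of the table, 87% of those tested and all 38 receptors. It is not known to be the annotation the authors used, so this order is approximate. As strand is not marked, reads in the 38.6% of *Nr2c2* and 54.4% of *Nr2f6* exons shared with opposite-strand genes cannot be told apart. In control, *Thra* was the highest receptor at 630 normalized counts per kilobase, followed by *Nr2f1* at 439, *Nr2c2* at 173, *Nr2f6* at 145, *Rorb* at 133 and *Rxrb* at 115. The first 3 were each apart from the next in the order. Further down, 18 of the 26 neighbouring pairs of the whole order overlapped in their range over libraries, and in the Cre-labelled libraries 22 of 26. *Nr2f2* stood 18th in control, at 22.7, and last in the Cre-labelled libraries, at 1.42. *Nr2f1* stood second in both groups, and at 692 its range there overlapped that of *Thra* at 736.

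Receptor genes lie near each other at several loci. *Thra* and *Nr1d1* overlap by 1075 bases on chromosome 11, with *Rara* 152 kb away from *Nr1d1*, and *Rarb*, *Thrb* and *Nr1d2* follow each other on chromosome 14, with gaps of 577 kb and 164 kb. Of the latter 3, *Thrb* passed the test and its neighbours on either side did not. Within 500 kb of the 5 receptors that passed there were 14 other tested genes. These were 5 for *Thrb*, 5 for *Nr5a2*, 2 for *Rora*, 2 for *Nr2f1* and 0 for *Nr2f2*, whose surroundings therefore could not be read. Of the 14, *A830082K12Rik* beside *Nr2f1* was the only one past the threshold, beside 9.96% of all genes tested.

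The genes around the receptors were taken from 13 lists by known role, 127 genes of which 92 could be tested. Of these 92, 14 (15.2%) passed the limma threshold, 7 in each direction, beside the 9.96% of all genes. The median log2 fold change over the 92 was -0.0017. The count depended on the libraries: it was 6 without GFP 1, 7 without GFP 1_1, 5 without GFP 2, 20 without Cre 2, 9 without Cre 2_2 and 15 without Cre 3. *Thrsp*, *Abca1*, *Apoe* and *Cpt1a* passed in all 16 alternatives, and 9 of the 14 lost the call in 2 to 7 alternatives each.

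**Figure D5:**
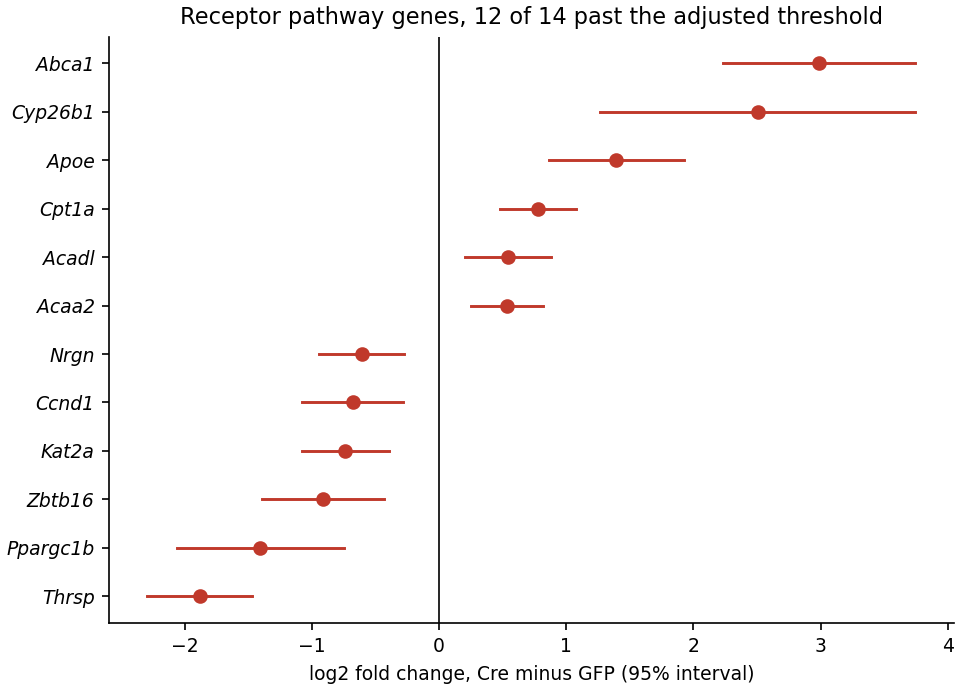
Log2 fold change (Cre-labelled libraries minus control) with its 95% interval for 12 of the 14 genes of the receptor pathway lists past the adjusted threshold. 6 lie to the right of 0, led by *Abca1* and *Cyp26b1*, and 6 to the left, led by *Thrsp*.

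Of the 6 genes of the corepressor complex itself none passed limma or edgeR, 2 (*Tbl1xr1* and its paralog *Tbl1x*) had an unadjusted p under 0.05, and DESeq2 called 1. The limma log2 fold changes were 0.32 for *Tbl1x* (adjusted p = 0.0847), 0.03 for *Ncor1* (adjusted p = 0.896), -0.05 for *Hdac3* (adjusted p = 0.892) and 0.03 for *Gps2* (adjusted p = 0.898).

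Of 16 coactivators 2 fell and none rose at the limma threshold, and DESeq2 on the recovered reads called 3, the added gene being higher. *Kat2a* (GCN5), a histone acetyltransferase, had 247, 287 and 285 normalized counts in control and 180.1, 157 and 154 in the Cre-labelled libraries, a log2 fold change of -0.74 (limma adjusted p = 0.0132, but 0.055 to 0.0698 without GFP 1_1, GFP 2 or Cre 2_2). *Ppargc1b* (PGC-1β), a coactivator of the estrogen-related receptors and PPARs, had 106, 116 and 103 in control and 24.2, 55.1 and 48.4 in the Cre-labelled libraries, a log2 fold change of -1.41 (limma adjusted p = 0.0136, but 0.0592 to 0.0666 without any one control library). Neither gene overlapped between the groups. Of 11 other corepressors *Zbtb16* (PLZF), also a glucocorticoid target, fell from a mean of 95.7 ± 10.5 to 50.5 ± 6.09 (SD, n = 3 each; log2 fold change -0.91, limma adjusted p = 0.0241, but 0.0702 to 0.0984 without any one control library or Cre 2_2). It was the only one to pass limma among the 11 corepressors and among 11 tested glucocorticoid targets, of which DESeq2 called 1 and 2.

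For retinoic acid, 6 of 15 supply and clearance genes and 8 of 14 target genes could be tested. At the limma threshold 1 rose in the first list and 2 in the second, and none fell in either. DESeq2 on the recovered reads called 2 in each list, and the gene it added to the first was lower. *Cyp26b1*, which degrades retinoic acid and is itself a target, had 24.8, 16.1 and 18.7 normalized counts in control and 59.6, 374 and 68.9 in the Cre-labelled libraries. Every value labelled Cre was higher, with Cre 2_2 far above the others, and the log2 fold change was 2.51 (limma adjusted p = 0.0185). Without Cre 2_2 it was 1.66 (limma adjusted p = 0.0245). Without GFP 1, GFP 1_1 or GFP 2 the limma adjusted p was 0.0525, 0.0772 or 0.0805.

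For thyroid hormone, 3 of 6 tested genes fell and none rose, while *Thrb* rose. *Thrsp*, a regulator of lipid synthesis named for its response to the hormone, had 681, 698 and 755 normalized counts in control and 204, 142 and 245 in the Cre-labelled libraries. The groups lay far apart (log2 fold change -1.88, standard error 0.19, limma adjusted p = 0.000187). *Nrgn*, a calmodulin-binding protein of neurons, went from 476 ± 57.0 to 312 ± 38.5 (SD, n = 3 each; log2 fold change -0.61, limma adjusted p = 0.0291, but 0.14 without GFP 1, 0.127 without GFP 2 and 0.0847 without Cre 2_2).

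Targets of the lipid sensors that passed were all higher. Of 7 tested LXR targets, *Abca1*, which exports cholesterol, had 41.3, 43.9 and 16 normalized counts in control and 218, 317 and 231 in the Cre-labelled libraries (log2 fold change 2.99, standard error 0.34, limma adjusted p = 0.000495). *Apoe*, the main lipid carrier of the brain and a gene of astrocytes, had 788, 825 and 975 in control and 1551, 3569 and 2076 in the Cre-labelled libraries (1.39, limma adjusted p = 0.00502). The other 5 did not pass, and *Nr1h2* did not either. Of 11 PPAR targets 3 genes of fatty acid oxidation rose. *Cpt1a*, the gate for fatty acids into mitochondria, went from 1593 ± 161 to 2746 ± 405 (SD, n = 3 each; 0.78, limma adjusted p = 0.00529). *Acaa2* (0.53, limma adjusted p = 0.0259) and *Acadl* (0.54, limma adjusted p = 0.0492) lost the call without any one of GFP 1, GFP 1_1, GFP 2, Cre 2_2 or Cre 3, with adjusted p of up to 0.104 and 0.222.

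In the other lists few genes or none passed. Of 2 tested targets of the vitamin D and estrogen receptors, *Ccnd1* (cyclin D1), a driver of the cell cycle, fell from 19349 ± 2311 to 12254 ± 2773 (SD, n = 3 each; log2 fold change -0.68, limma adjusted p = 0.0376, but 0.16 without GFP 1, 0.0628 without GFP 1_1, 0.142 without GFP 2 and 0.0656 without Cre 3). Of 5 tested targets of the REV-ERB and ROR receptors none passed limma, edgeR or DESeq2, and 1 had an unadjusted p under 0.05, which was also so for the 8 targets of the estrogen-related receptors. Of 11 further nuclear receptors outside the list of 38, 2 were high enough to test and neither passed limma, edgeR or DESeq2 or had an unadjusted p under 0.05, and 6 had 0 reads in every library. The exons of *Nr1i3* share 51.4% of their length with *Tomm40l* on the other strand.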

How the data were processed

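RNA-seq of 6 NSC libraries was used, grouped by their titles. The authors prepared libraries with the TruSeq RNA Library Prep Kit v2. Their methods name TopHat with mm9 and mm10, whereas the processing notes in the labels name STAR 2.7, DESeq2 and mm10. Counter, strand setting and annotation are not given in the sources used here, nor is the handling of reads shared by paralogs. The values deposited by the authors are DESeq2 normalized counts, a signal of reads divided by 1 size factor per library. The table also holds the authors' own fold changes, test statistics and p-values, which were not used. Whole reads were recovered for 100% of values, to within 0.001 of a read. Of the genes, 873 have no name, and 1 with a missing value (*Srpk3* in GFP 2) was left out. The number of columns of per-sample values left unused was 0. No pair of libraries in a group agreed within sampling noise (chi-square per degree of freedom 6.37 to 40.0).

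Tests used limma 3.58.1 in R 4.3.3 (lmFit and eBayes, trended prior). The scale was log2(normalized count + 1), and 14840 genes reached the minimum mean of 10, with Benjamini-Hochberg adjustment and a threshold of 0.05, two-sided. The added 1 (the pseudocount) makes the fold changes of low genes smaller in size. For *Nr2f2* the log2 fold change was -3.87, against -3.96 with a pseudocount of 0.5 and -3.30 with 5. Against DESeq2 on the recovered reads there was no single direction. There *Nr2f2* had -4.02, larger in size than on this scale, whereas *Rarg* had -0.68 against -0.74. A test on the log scale had been set as the main one for normalized values. On the recovered reads DESeq2 called 1755 genes and 6 receptors, with *Nr2c2* added, and edgeR 1483 genes and 5 receptors. An exact permutation test of 3 against 3 cannot go below 0.1. Alternatives were edgeR 4.0.16 and DESeq2 1.42.0 on recovered reads, pseudocounts of 0.5 and 5, no filter, a mean of at least 50, TMM and total-count scaling, averaging like-numbered libraries, and leaving out each library. Every receptor with a mean of at least 10 is named by subfamily, those below by level, and pathway genes where past the threshold (at most 4 a list). Some genes that this rule names are not reported here, and they remain in the counts of genes. Members and lists were chosen with earlier results of these data known. Coordinates and promoters are from RefSeq GRCm38.p6, and exon lengths and overlaps from GENCODE M1 (mm9). Python 3.11.15, pandas 2.3.3 and matplotlib 3.10.9 were used.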

Additional observations from a re-analysis of the deposited data

How the results depend on the processing

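The 5 receptors past the threshold kept their direction and call in every one of the 16 alternatives that gave them a value (*Nr5a2* has none at a mean of at least 50). Leaving out 1 library gave 5 to 8 receptors past the threshold, with 7 without Cre 2 and 8 without Cre 3. All genes past the threshold numbered 558 (without GFP 1) to 2396 (without Cre 2) when a library was left out, and 660 when GFP 1 and GFP 1_1 were averaged. Pathway genes numbered 5 (without GFP 2) to 20 (without Cre 2), and 7 with those libraries averaged. *Tbl1xr1* had a log2 fold change of 0.36 to 0.55 when a library was left out, and 0.45 with DESeq2 (adjusted p = 0.0398). Of 650 comparisons of single genes, 585 kept direction and side of the threshold, 41 lost the call, 8 gained it and 16 turned direction. With the Cre libraries 2 and 2_2 averaged, *Rara* turned to 0.0244 and *Rxrb* to 0.0166. With a library left out, *Rara* ran from -0.18 to 0.0623, *Rxrb* from -0.0936 to 0.0777, *Nr2c1* from -0.0831 to 0.19, *Nr2e1* from -0.31 to 0.11, *Esrra* from -0.25 to 0.17 and *Nr4a3* from -0.26 to 1.42, none of which was past the threshold. The cause was not tested. No paired analysis was possible because the groups share only the number 2. Few reads limit the precision for *Nr4a1*, *Nr4a3*, *Rarb* and the 11 receptors below the minimum. The same holds for the Cre-labelled values of 2 receptors past the threshold. In Cre 2, Cre 2_2 and Cre 3, *Nr2f2* had 6, 11 and 8 reads and *Nr5a2* had 10, 18 and 6, so the size of their falls is uncertain.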
